A study of Mus musculus with 50 samples.

Results

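The 7 cDNA clones of 3 lipid genes were followed through the stress response of the paraventricular nucleus of the hypothalamus (PVN), where corticotropin-releasing neurons set off the hormonal response to stress. They are 3 clones of Insig1, 3 clones of Stard4 and 1 clone of Fads1, out of 22824 non-control clones on the array. They were found by the gene name printed in the array's own annotation, and the genes themselves were selected because of ratios measured earlier on these same arrays. The Fads1 clone carries a RIKEN cDNA name that the RefSeq table lists as a synonym of Fads1. No clone carried the name fatty acid desaturase 1.

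Male DBA/2J and C57BL/6J mice, 2 inbred strains, 3 to 5 months old, either swam for 5 min in a forced swim test and were killed 4 h or 8 h later, or were left non-stressed. PVN RNA of 6 animals was pooled per condition, which gave 6 pools, and the pooled RNA was amplified in 2 rounds. Pairs of pools were hybridised together on two-colour arrays, 10 arrays for each of 5 comparisons and 5 of them in each dye orientation. In each strain the 4 h and the 8 h stressed pools were compared with the same non-stressed pool, and the non-stressed DBA/2J pool was compared with the non-stressed C57BL/6J pool. Since all 10 arrays of a comparison carry the same 2 pools, errors and p-values cover labelling and hybridisation alone, and set pool against pool, with no measure of the spread between animals. In pooled tissue RNA, fewer cells of a type and less RNA per cell cannot be told apart.

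Cholesterol synthesis in the cell is set by a feedback loop in the endoplasmic reticulum. The transcription factors SREBP-1 and SREBP-2, encoded by Srebf1 and Srebf2, are held there by the escort protein Scap. When sterols are plentiful, the Insig proteins retain Scap. When sterols run low, Scap carries the SREBPs to the Golgi, where site-1 and site-2 proteases (Mbtps1 and Mbtps2) release the active factors. Insig1 encodes one of the retaining proteins and is itself a target of the SREBPs, which closes the loop. Stard4 encodes a soluble carrier of cholesterol between membranes, and its transcription is also known to respond to sterols. Fads1 encodes the delta-5 desaturase, which makes long polyunsaturated fatty acids such as arachidonic acid. In the adult brain nearly all cholesterol is made locally, much of it for myelin.

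Insig1 is the member with 2 clones whose ratios ran together across the comparisons, and its promoter is shown because it is the sterol-regulated end of the loop. The RefSeq table gives the 250 bases before the start of Insig1 at chr5:28071162-28071411 on the plus strand (GRCm38.p6). Capitals mark the motifs that were searched for and found, on either strand:
Insig1 promoter: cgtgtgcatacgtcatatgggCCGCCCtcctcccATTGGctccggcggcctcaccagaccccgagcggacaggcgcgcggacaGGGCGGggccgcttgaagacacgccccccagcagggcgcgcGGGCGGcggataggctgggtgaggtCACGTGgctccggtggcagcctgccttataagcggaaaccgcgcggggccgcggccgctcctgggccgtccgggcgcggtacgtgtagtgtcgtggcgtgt
The window held 3 GC boxes (GGGCGG or CCGCCC, the letters bound by Sp1), starting at -229, -167 and -126 from the gene's start. A GC box was present in 32.7% of all 32851 promoters of the same length. It held 1 CCAAT box (CCAAT or ATTGG) at -216, found in 33.8% of promoters, and 1 E-box (CACGTG, its own reverse complement) at -101, found in 6.02%. The letters TCACNCCAC or GTGGNGTGA, a core of the sterol regulatory element, were not in this window and occurred in 1.05% of promoters. None of these motifs overlapped another. Stard4 and Fads1 had no entry in the promoter table.

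The clones differed widely in brightness, which sets how far each can be read. The bench mark was the 95th percentile of the 1170 empty spots of the same array, and a clone counted as above it only if both dyes were. The Fads1 clone, at spot 11116, was above it on 50 of 50 arrays, with median signals of 14800 to 31900 per comparison and dye. The Insig1 clones at spots 10784 and 2344 were above it on 40 and 25 of 50 arrays. The Stard4 clones at spots 3395 and 11050 both passed on 28 of 50 arrays, and on none of the 10 arrays of DBA/2J 8 h after stress. The Insig1 clone at spot 13342 passed on 1 of 50 arrays and the Stard4 clone at spot 9221 on 3 of 50, so the ratios of these 2 clones mostly compare spots under that mark. Over all clones, the share above the empty spots was 5.3% to 8.1% on the DBA/2J 8 h arrays and 29.8% to 57.1% on the C57BL/6J 4 h arrays. The mark itself differed between them, at 1426 to 2879 in Cy5 on the former and 170.9 to 453.1 on the latter.

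**Figure D1:**
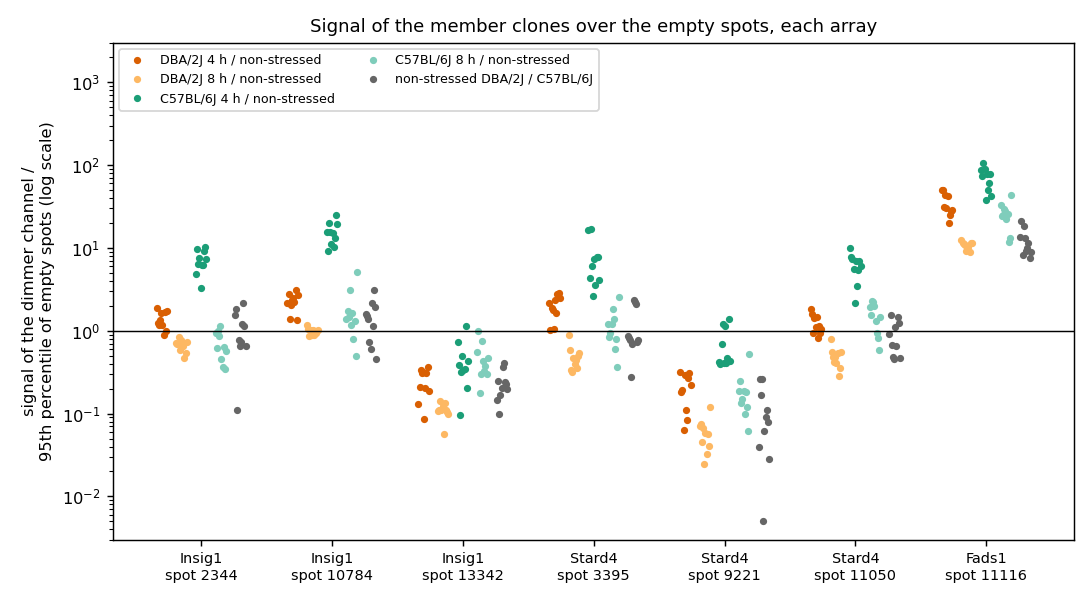
Signal of the dimmer dye divided by the 95th percentile of the empty spots in that dye (log scale), for each member clone (x axis) on each of the 50 arrays, coloured by comparison. The line at 1 is the level of the empty spots, and Fads1 lies above it on 50 of 50 arrays, while Insig1 spot 13342 and Stard4 spot 9221 lie above it on 1 and 3.

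Log2 ratios are given by the dyes as labelled, stressed over non-stressed and DBA/2J over C57BL/6J. The fold changes published for these arrays run in the opposite direction in all 5 comparisons, and the files do not settle which one holds. Every "higher" and "lower" here is therefore by the labelled dyes, and turns round if the sign does. Sizes are the same either way, and a difference between comparisons turns with them. The study also measured a few other genes by real-time PCR and in situ hybridisation, which were not analysed here. In DBA/2J mice, its PCR on unpooled samples is reported to show more Gnai2 at 4 h and more App at 8 h. In situ hybridisation is reported to show an increase as well. These assays bear the published sign and not that of the labelled dyes. Insig1, Stard4 and Fads1 were not measured by them.

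In C57BL/6J mice 4 h after stress, the 2 measurable Insig1 clones had positive mean ratios, stressed over non-stressed, that did not pass the test. A clone passed, or was called, at 1.4-fold or more either way (the exact fold is given with the methods) and a limma adjusted p under 0.05 over all clones. Clone 2344 ran from -0.13 through a median of 0.45 to 1.17 and had a mean of 0.42 ± 0.10 (SE, n = 10), with a limma adjusted p of 0.13. Clone 10784 ran from 0.07 through 0.53 to 0.83 and had a mean of 0.49 ± 0.11 (SE, n = 10; adjusted p of 0.0852). Clone 10784 was above 0 on 10 of 10 arrays and clone 2344 on 9, while 0.289% of all clones were called.

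At 8 h in C57BL/6J mice, both clones were higher in the stressed pool than in the non-stressed pool on every array. On the 10 arrays the log2 ratio of clone 2344 was 0.59 at its lowest, 1.35 at the median and 2.38 at its highest, and its mean was 1.34 ± 0.18 (SE, n = 10 arrays), or 2.53-fold. Clone 10784 ran from 0.32 through a median of 1.17 to 1.72, with a mean of 1.14 ± 0.14 (SE, n = 10), or 2.21-fold. With the sign turned, the means are -1.34 and -1.14. Both clones were called, as were 0.0832% of all clones in this comparison. Insig1 was selected partly on this comparison, so these values are a description. Clone 10784 was above the empty spots on 8 of the 10 arrays, but clone 2344 on only 2. Leaving out 1 array ended the call of clone 2344 for 3 of the 10 arrays and that of clone 10784 for 0 of 10. The 8 h ratio exceeded the 4 h ratio by 0.92 ± 0.21 for clone 2344 and by 0.65 ± 0.17 for clone 10784 (SE over 20 arrays), a description, since the 8 h comparison helped to select the gene. Of all clones, 0.495% were called for this difference.

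In DBA/2J mice, the Insig1 ratios were lower at 8 h than at 4 h. At 4 h the mean log2 ratios were 0.24 ± 0.13 for clone 2344 and 0.23 ± 0.14 for clone 10784 (SE, n = 10; limma adjusted p of 0.539 and 0.596). At 8 h they were -0.37 ± 0.10 and -0.51 ± 0.09 (adjusted p of 0.159 and 0.0541). None of these 4 values passed the test, although clone 10784 at 8 h did so at -0.51 with scan day as a random block and under 5 other alternatives, and over all clones 0.153% were called at 4 h and 0.158% at 8 h. At 8 h clone 10784 ran from -0.75 through a median of -0.53 to -0.15 and was below 0 on 10 of 10 arrays. Clone 2344 ran from -0.84 through -0.34 to 0.10 and was below 0 on 9 of 10.

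The change between the times in DBA/2J mice passed its own test. The 8 h ratio was lower than the 4 h ratio by a difference of -0.61 ± 0.14 in clone 2344 (limma adjusted p of 0.0454) and of -0.74 ± 0.15 in clone 10784 (adjusted p of 0.0171; SE over 20 arrays each). With the sign turned these are 0.61 and 0.74, and the 8 h ratio is the higher one. For this difference 1.00% of all clones were called. Insig1 was not selected on either of these comparisons. They share the non-stressed DBA/2J pool, so the difference sets the 8 h pool against the 4 h pool. On the 8 h arrays clone 2344 was above the empty spots in both dyes on 0 of 10 arrays and clone 10784 on 5 of 10, while on the 4 h arrays they were above on 8 and 10.

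**Figure D2:**
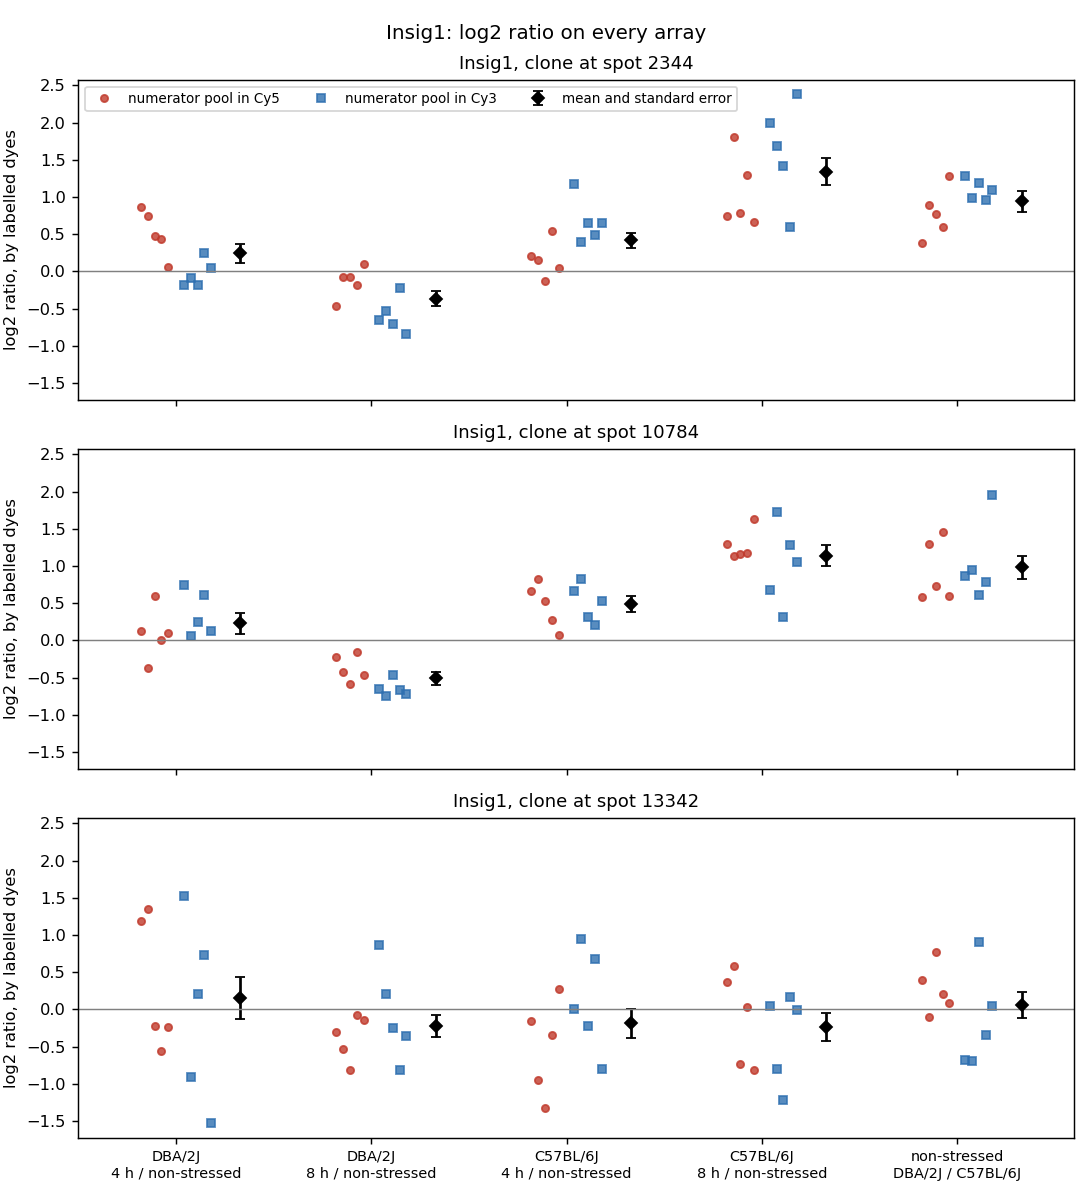
Log2 ratio of the 3 Insig1 clones (panels) on every array of the 5 comparisons (x axis), with circles where the numerator pool was in Cy5, squares where it was in Cy3, and diamonds with bars for the mean and standard error of 10 arrays. Clones 2344 and 10784 lie above 0 on every array of C57BL/6J 8 h and of the strain comparison, and clone 10784 lies below 0 on every array of DBA/2J 8 h.

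Between the strains, the 4 h ratios of Insig1 were not separated. DBA/2J minus C57BL/6J was -0.18 ± 0.15 for clone 2344 (95% interval -0.49 to 0.13, limma adjusted p of 0.676) and -0.27 ± 0.16 for clone 10784 (-0.60 to 0.07, adjusted p of 0.518), where 2.34% of all clones were called. At 8 h the difference was -1.70 ± 0.21 and -1.65 ± 0.16 for the 2 clones (SE over 20 arrays). All 10 DBA/2J arrays of clone 10784 lay below 0 and all 10 C57BL/6J arrays above it, and the ranges of clone 2344 did not overlap either. The 8 h difference is a description, because the C57BL/6J 8 h ratio in it helped to select the gene; 0.600% of all clones were called for it.

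Before stress, Insig1 was higher in the DBA/2J pool than in the C57BL/6J pool. Clone 2344 ran from 0.38 through a median of 0.98 to 1.28, with a mean of 0.94 ± 0.14 (1.92-fold), and clone 10784 from 0.58 through 0.82 to 1.95, with a mean of 0.98 ± 0.16 (1.97-fold; SE, n = 10 each). With the sign turned the means are -0.94 and -0.98. Both were called, in a comparison in which 3.62% of all clones were, and both calls held with any 1 array left out. The gene was selected partly on this comparison too. The non-stressed pools used here are also the denominators of the stress comparisons. Because of that, the 8 h ratio of C57BL/6J and the strain ratio share the non-stressed C57BL/6J pool in their denominators.

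The third Insig1 clone, at spot 13342, gave no such pattern. Its means were 0.15 ± 0.28 and -0.22 ± 0.15 in DBA/2J mice at 4 h and 8 h, -0.19 ± 0.19 and -0.24 ± 0.19 in C57BL/6J mice at 4 h and 8 h, and 0.06 ± 0.17 between the strains (SE, n = 10 each). Its median signals were 72.9 to 369 per comparison and dye, against 549 to 3190 for clone 2344. Brightness limits what it can say of Insig1.

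Across all 50 arrays the log2 ratios of clones 2344 and 10784 correlated at a Pearson r of 0.67, or 0.74 with the dye term removed. With both the dye term and the mean of each comparison removed, r was -0.16. The clones thus shared their differences between comparisons and not their deviations within one. Clone 13342 correlated with them at 0.06 and 0.01, with nothing removed. The 50 points share 6 pools, the slides and the dyes, and these values are descriptions.

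The 3 Stard4 clones ran differently from one another, so the gene is described clone by clone. Their pairwise r over 50 arrays were 0.04 (3395 and 11050), -0.27 (3395 and 9221) and -0.13 (9221 and 11050). Stard4 was selected on the strain comparison and on both 4 h comparisons, so that only the 8 h ratios were tested. These share their non-stressed pools with the comparisons that selected the gene, so their p are not independent of the selection. The same holds for the strain difference at 8 h.

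Clone 11050 showed the widest course. In DBA/2J mice at 4 h its log2 ratio ran from -1.16 through a median of -0.69 to 0.10, with a mean of -0.62 ± 0.16, and in C57BL/6J mice at 4 h from -0.05 through 0.45 to 1.05, with a mean of 0.48 ± 0.10 (SE, n = 10 each). At 8 h the order of the strains was the other way round. The mean was 0.46 ± 0.10 in DBA/2J mice, over -0.03, 0.41 and 0.82 as the lowest, median and highest array, and -0.59 ± 0.12 in C57BL/6J mice, over -1.56, -0.58 and 0.24. Neither 8 h ratio passed the test (limma adjusted p of 0.12 in DBA/2J and 0.122 in C57BL/6J). The fitted difference between the strains at 8 h, DBA/2J minus C57BL/6J, was 1.05 ± 0.15 (limma adjusted p of 0.000551, 20 arrays). With the sign turned it is -1.05. On the 10 DBA/2J 8 h arrays, however, the clone was above the empty-spot mark in neither dye. On the C57BL/6J 8 h arrays it was above it in both dyes on 7 of 10. The DBA/2J ratios that enter the difference and its p thus come from spots under that mark.

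No fold is given for clone 11050 in DBA/2J mice at 8 h. On the C57BL/6J 8 h arrays its mean was -0.06 (-0.35 to 0.24) where the stressed pool was in Cy5, against -1.13 (-1.56 to -0.80) where it was in Cy3, 5 arrays each. The fitted dye term was 0.54, against a median absolute dye term of 0.20 over all clones. Of the 5 Cy5 arrays, 4 made up 1 scan day by themselves, and on that day alone the ratio was -0.06, against -0.58 on the other day. The mean holds both orientations equally, so that a constant dye effect cancels in it, and it was -0.59 with scan day as a random block. The part of the scan day in the difference between the strains was not tested.

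Clone 3395, with signals like those of clone 11050, had smaller ratios. Its means were 0.36 ± 0.13 and -0.09 ± 0.12 in DBA/2J mice at 4 h and 8 h, and 0.20 ± 0.11 and 0.11 ± 0.17 in C57BL/6J mice at 4 h and 8 h (SE, n = 10 each). The 8 h values had limma adjusted p of 0.815 in DBA/2J and 0.893 in C57BL/6J. The strain difference at 8 h, DBA/2J minus C57BL/6J, was -0.20 ± 0.21 (95% interval -0.64 to 0.25, adjusted p of 0.812), an interval that does not reach the 1.05 of clone 11050. Clone 9221 had 8 h means of 0.06 ± 0.25 in DBA/2J and 0.17 ± 0.26 in C57BL/6J, and a strain difference of -0.11 ± 0.38 (adjusted p of 0.956). Its 4 h means were 0.29 ± 0.19 in DBA/2J and -0.44 ± 0.18 in C57BL/6J, the reverse of the order in clone 11050.

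In the non-stressed pools all 3 Stard4 clones had positive means for DBA/2J over C57BL/6J, but clone 3395 was 0.73 with DBA/2J in Cy5 and -0.09 with it in Cy3. Clone 11050 ran from 0.11 through a median of 0.61 to 1.05, with a mean of 0.61 ± 0.15 (1.53-fold), and was above 0 on 10 of 10 arrays. Clone 9221 had a mean of 0.78 ± 0.20 and clone 3395 of 0.32 ± 0.17, above 0 on 8 and 6 arrays (SE, n = 10 each). Clones 11050 and 9221 were called and clone 3395 was not, where 3.62% of all clones were called. Leaving out 1 array ended the call of clone 11050 for 7 of the 10 arrays and that of clone 9221 for 8 of 10. Clone 9221 was above the empty spots on 0 of these 10 arrays, and Stard4 was selected on this comparison.

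**Figure D3:**
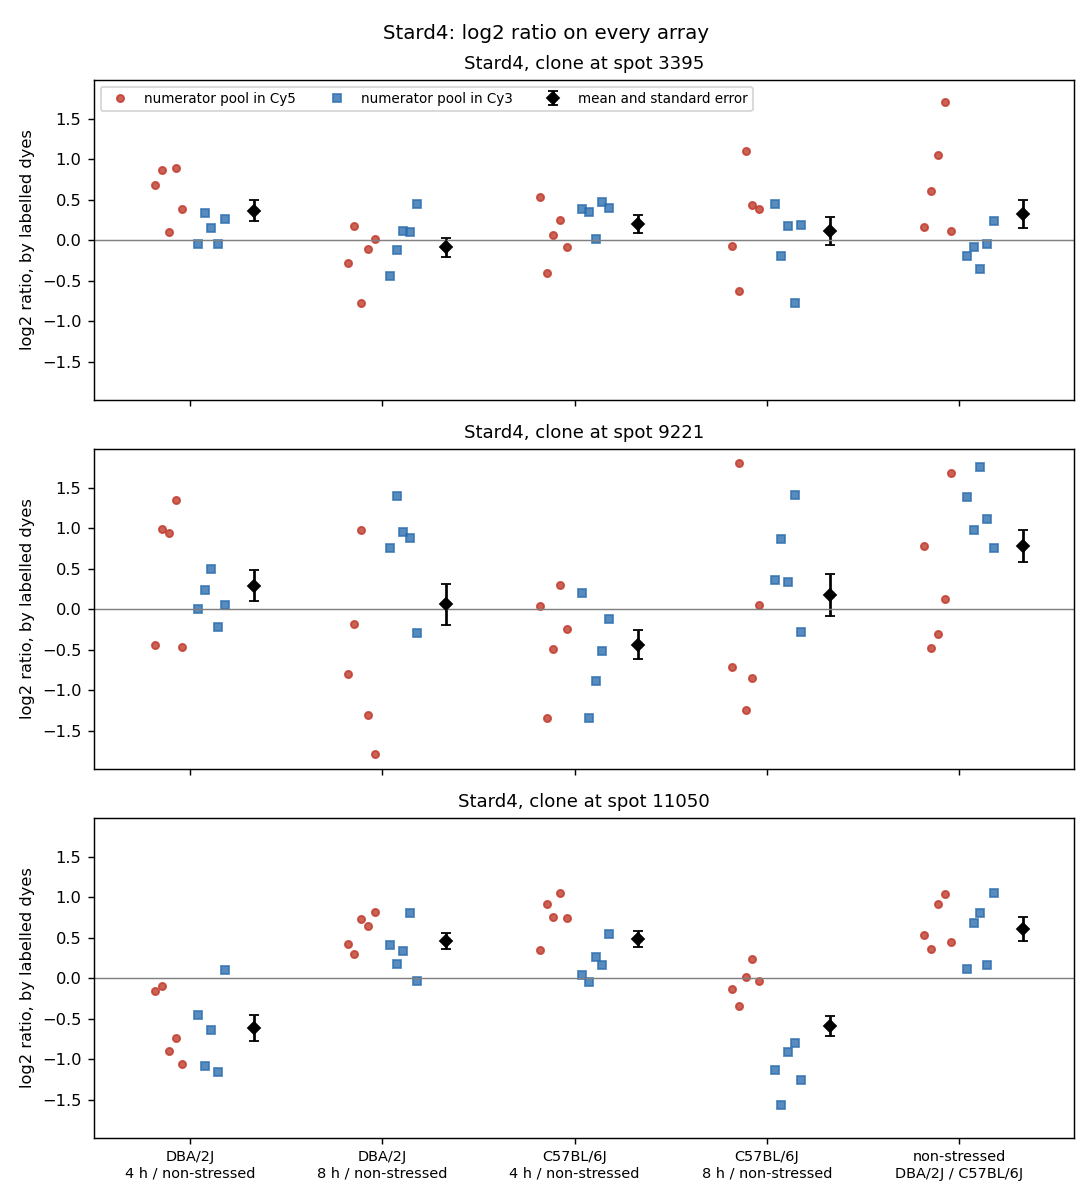
Log2 ratio of the 3 Stard4 clones (panels) on every array of the 5 comparisons (x axis), with circles for the numerator pool in Cy5, squares for Cy3, and diamonds with bars for the mean and standard error of 10 arrays. In C57BL/6J 8 h the circles of clone 11050 lie between -0.35 and 0.24 and its squares between -1.56 and -0.80, while clones 3395 and 9221 spread around 0.

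Fads1 was by far the brightest member, and in the 4 stress comparisons its SD over the arrays, 0.10 to 0.19, was the smallest of the 7 clones. In the non-stressed pools the DBA/2J signal was below that of C57BL/6J on every array, from -2.11 through a median of -1.55 to -1.19, with a mean of -1.60 ± 0.14 (SE, n = 10), or 3.02-fold. With the sign turned the mean is 1.60. The clone was called and stayed so with any 1 array left out; Fads1 was selected on this comparison. The size depended on the normalisation. It was -1.43 under loess within each print tip, -1.91 with arrays centred on their medians and -0.90 in the values processed by the authors, and it was negative in each.

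After stress, no Fads1 ratio passed the test against the non-stressed pool. In DBA/2J mice its log2 ratio at 4 h ran from -0.72 through a median of -0.56 to -0.17, below 0 on 10 of 10 arrays, with a mean of -0.50 ± 0.12 (SE, n = 10; limma adjusted p of 0.117). At 8 h the mean was 0.06 ± 0.08 (adjusted p of 0.833), and 7 of 10 arrays were above 0. The arrays of the 2 times did not overlap, since the highest 4 h array stood at -0.17 and the lowest 8 h array at -0.13. The 8 h ratio exceeded the 4 h ratio by 0.56 ± 0.12 (adjusted p of 0.0239, 20 arrays; -0.56 with the sign turned), where both share the non-stressed pool. In the authors' processed values this difference was 0.34 and did not pass.

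In C57BL/6J mice the 4 h mean of Fads1 was -0.17 ± 0.08 (adjusted p of 0.434), again below 0 on 10 of 10 arrays, from -0.37 to -0.03. The 8 h mean was 0.07 ± 0.11 (adjusted p of 0.885). The difference between the times was 0.24 ± 0.11 (95% interval 0.00 to 0.48, adjusted p of 0.463). DBA/2J minus C57BL/6J was -0.33 ± 0.12 at 4 h (-0.58 to -0.08, adjusted p of 0.178) and -0.01 ± 0.11 at 8 h (-0.25 to 0.22, adjusted p of 0.985).

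**Figure D4:**
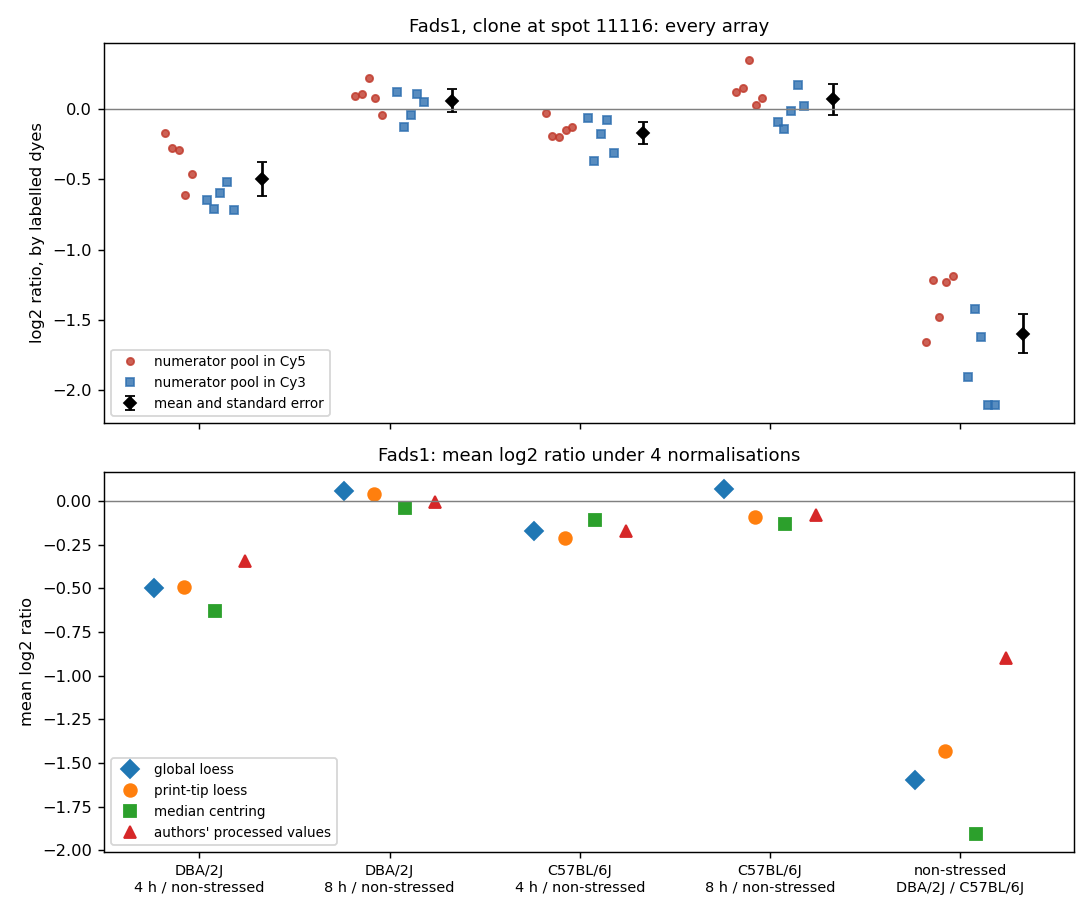
Upper panel, log2 ratio of Fads1 on every array of the 5 comparisons (x axis), with circles for the numerator pool in Cy5, squares for Cy3, and diamonds with bars for the mean and standard error of 10 arrays. Lower panel, the mean log2 ratio under 4 normalisations, where the strain comparison lies between -0.90 and -1.91 and the DBA/2J 4 h ratio between -0.34 and -0.63.

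The other genes of the sterol loop were set beside the members. In the SREBP machinery, 5 of 7 genes were on the array as 9 clones, and Scap and Mbtps2 were not found by name. The 6 clones that are not Insig1 had 0 calls in all 5 comparisons by limma, and 0 to 3 of them had an unadjusted p under 0.05. Over all clones 0.153% and 0.158% were called in DBA/2J mice at 4 h and 8 h, 0.289% and 0.0832% in C57BL/6J mice at 4 h and 8 h, and 3.62% between the strains, and 0 calls among 6 clones is near that background. Over all 4 lists described here, members included, the methods' t-test with adjustment called 1 clone in DBA/2J mice at 4 h and 2 at 8 h, 2 in C57BL/6J mice at 8 h and 0 at 4 h. Srebf2, the factor that mainly drives cholesterol synthesis, had a log2 ratio of -0.66 ± 0.15 in DBA/2J mice at 4 h (clone 1773, adjusted p of 0.109), and between -0.22 and 0.17 elsewhere. Clone 485 of Insig2, the second retaining protein, had 0.54 ± 0.15 in DBA/2J mice at 4 h (limma adjusted p of 0.194). Elsewhere it lay between -0.27 and 0.18. The other Insig2 clone, 8283, had 0.31 ± 0.18 in DBA/2J mice and 0.32 ± 0.15 in C57BL/6J mice at 4 h. In the remaining comparisons clone 8283 lay between -0.14 and 0.00, and it passed the test in none. The brighter Srebf1 clone, 9270, stayed between -0.37 and -0.05.

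The genes of cholesterol synthesis had no call in any comparison, which at their number is near the same background. Of 21 genes 19 were on the array as 28 clones, of which 0 were called by limma in each of the 5 comparisons. Unadjusted p was under 0.05 for 3 of the 28 in DBA/2J mice at 4 h and 7 at 8 h, for 3 in C57BL/6J mice at 4 h and 0 at 8 h, and for 2 between the strains. Over all clones the share was 10.7% and 12% in DBA/2J mice at 4 h and 8 h, 12.3% and 9.28% in C57BL/6J mice at 4 h and 8 h, and 15.4% between the strains. The median log2 ratio of the list was -0.01 and -0.10 in DBA/2J mice at 4 h and 8 h, 0.03 and 0.07 in C57BL/6J mice at 4 h and 8 h, and 0.05 between the strains, against medians of -0.01 to 0.01 over all clones. At 8 h in C57BL/6J mice, where Insig1 stood at 1.34 and 1.14, the 28 clones lay between -0.41 and 0.39.

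Cholesterol uptake, transport and removal was represented by 23 of 23 genes and 36 clones, and the 2 Stard4 clones of the strain comparison were the only ones called in any comparison. Among the other 33 clones, 2 to 4 had an unadjusted p under 0.05 in each comparison, a share below that of all clones in each. Fatty acid synthesis and desaturation had 21 of 25 genes and 37 clones. Besides Fads1, 1 clone was called, Lpin1 (clone 8812, a phosphatidate phosphatase) at 1.00 ± 0.25 between the strains (adjusted p of 0.0392), but it was above the empty spots on 0 of 10 arrays. Fads1 aside, an unadjusted p under 0.05 was found for 6 of 36 clones of this list in DBA/2J mice at 4 h. At 8 h it was found for 12 of the 36, and the list median was -0.12. In C57BL/6J mice it was found for 6 at 4 h and 5 at 8 h, and between the strains for 6. Each share was above that of all clones, and the excess was not tested. Scd1, the delta-9 desaturase, was on the array as 3 clones. Clone 3058 had -0.52 ± 0.11 in DBA/2J mice at 8 h (adjusted p of 0.0856), where it was above the empty spots on 0 of 10 arrays, and 0.47 ± 0.13 between the strains (adjusted p of 0.0637). Clones 14121 and 17288 had -0.16 and -0.05 at 8 h, and 0.00 and 0.10 between the strains.

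**Figure D5:**
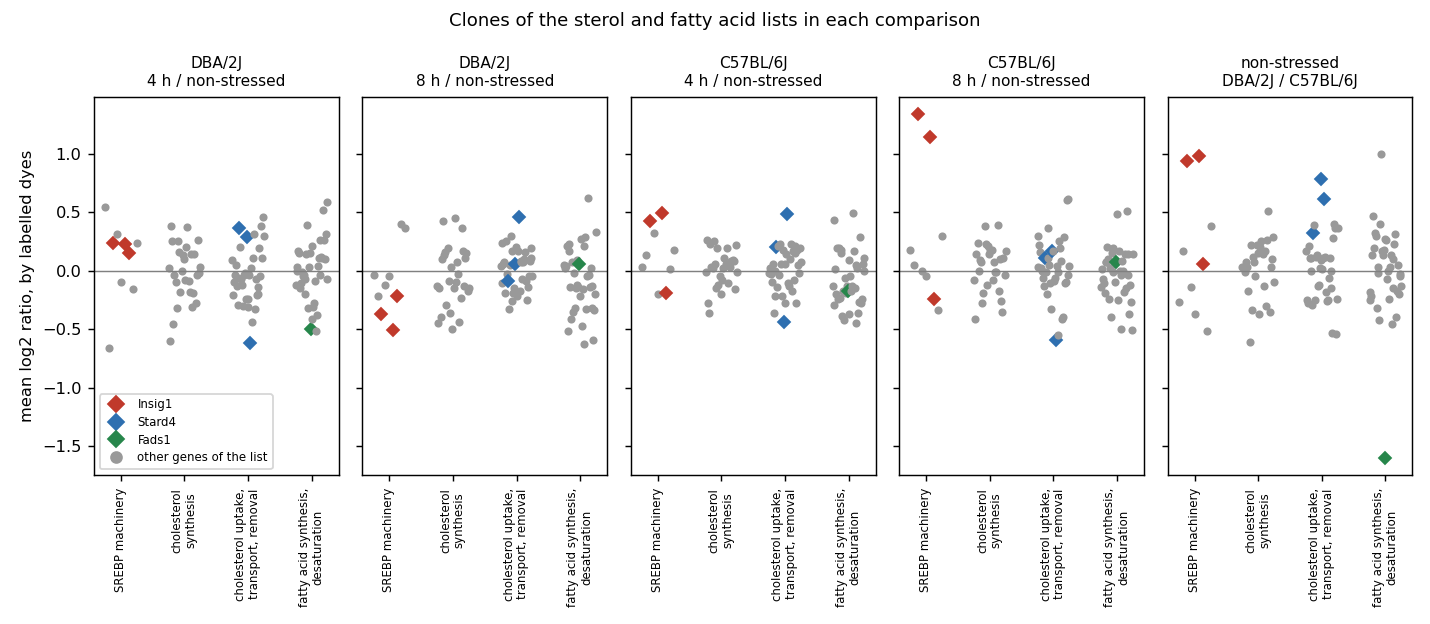
Mean log2 ratio of each clone of the 4 sterol and fatty acid lists (x axis) in the 5 comparisons (panels), with diamonds for Insig1, Stard4 and Fads1 and grey circles for the other genes. Insig1 stands at 1.34 and 1.14 in C57BL/6J 8 h, where the cholesterol synthesis clones lie between -0.41 and 0.39, and Fads1 stands at -1.60 in the strain comparison. Of the 28 cholesterol synthesis clones, 8 were above the empty spots on at least 5 of the 10 arrays of C57BL/6J 8 h.

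The called clones of cell type markers were all but 1 in the strain comparison, where 3.62% of all clones were called, against 0.0832% to 0.289% in the stress comparisons. There 9 of 41 clones of oligodendrocyte and myelin genes were called, 7 higher in DBA/2J and 2 lower, with a list median of 0.17. Mbp, a main myelin protein, had 4 higher clones (0.64 to 1.10), but Cnp was lower at -1.05 and Mobp at -0.89. In astrocytes 4 of 32 clones were called, all of Glul (0.85 to 1.22; list median 0.13). Of blood and endothelium 2 of 15 clones were called, both of Hbb-b1 (1.05 and 0.77; list median 0.14), and of neurons 1 of 25, Nefh at -0.84 (list median -0.04). The Insig1 and Stard4 clones that were higher in DBA/2J thus moved with some myelin, astrocyte and globin clones and against others, and the part of cell composition in them was not tested. The 1 marker clone called outside the strain comparison was the PVN peptide Trh in DBA/2J mice at 4 h (-0.75).

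The clones whose ratios ran most like those of each member were sought by Pearson r over the 50 arrays. The candidates were 2086 named clones, or 2088 for Fads1. Their signal, as the mean of Cy5 and Cy3, was above the 95th percentile of that mean over the empty spots on at least 25 arrays. This mark takes the mean of the dyes and does not require both to be above. For both Insig1 clones the nearest was a disintegrin and metalloprotease domain 10 (r = 0.79 with clone 2344 and 0.80 with clone 10784). Clone 5449 of telomerase binding protein p23 was among the 5 of both (0.78 and 0.76). So was synaptosomal-associated protein (0.73 and 0.76). Transient receptor potential cation channel M2 (0.75) and glypican 4 (0.73) completed the 5 of clone 2344. A second p23 clone, 11138 (0.79), and transcription factor 7-like 2 (0.72) completed those of clone 10784. The r of the 2 Insig1 clones with each other, 0.67, was below these, which are the highest among 2086.

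For Fads1 the nearest clones were claudin 12 (0.91), the mitochondrial carrier Slc25a12 (0.88), adiponutrin (0.87), palmitoyl-protein thioesterase 2 (0.80) and apoptosis-associated tyrosine kinase (0.78). The Stard4 clones had no neighbours in common. The nearest to clone 11050 were ribosomal protein S8 and protocadherin 18 (0.66 each), isocitrate dehydrogenase 2 and menage a trois 1 (0.64 each) and Mbp (0.62). In a check added after the data were seen, with the dye term removed from the ratios, 0 of these 5 were still among its nearest 5, against 1 of 5 for clone 3395, 3 of 5 for each of the 3 Insig1 clones and for Stard4 clone 9221, and 4 of 5 for Fads1. For clone 3395 the highest r was 0.47, and the desaturase Scd1 stood among its 5 at 0.42. For clone 9221 the highest was 0.57 and for the dim Insig1 clone 13342 it was 0.51. All 50 points come from 6 pools, and the r carry no test.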

How the data were processed

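The 50 two-colour arrays measured pooled PVN RNA in 5 comparisons of 10. Arrays were grouped by their labels, and the dye of each pool was read from the labels and the image lines of each file. The authors deposited scanned spot intensity values in Cy5 and Cy3, quantified with fixed circles and not background-subtracted, and a table of processed log2 ratios whose filter and scale were not stated; the scale was found from the values. Here the intensities were corrected by normexp with an offset of 50 and normalised by global loess array by array. The 10 arrays of a comparison entered a limma fit with a dye term (limma 3.58.1, R 4.3.3). Benjamini-Hochberg adjustment ran over 22824 clones, leaving out 1368 control spots, and a call needed 1.41-fold either way and an adjusted p under 0.05. Differences between comparisons were fitted over 20 arrays.

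Gene symbols came from full names (213 clones) and RefSeq synonyms (6598 clones). Clones of a gene were kept apart. The text names every clone of the 3 genes, the called clones of each list up to 4 (all in the marker lists), a few fixed pathway genes, and the 5 nearest named clones of each member. The members and lists were chosen with earlier results of these data known. Contrasts on which a member was selected carry no p. The stress ratios that do carry a p share non-stressed pools with contrasts that selected the member. A few pathway and marker genes are left out of the text. The fit was tested on simulated data. Summaries used Python 3.11.15, pandas 2.3.3, numpy 2.4.6 and matplotlib 3.10.9. Precision is limited by the number of arrays, and median spot signals were 135 to 294.8 in Cy5 and 218.1 to 491.4 in Cy3.

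Alternatives were median centring, print-tip loess, the unsubtracted intensities, the authors' values, leaving out dim clones, leaving out the dye term, the methods' t-test (adjusted), each dye orientation alone or both averaged, scan days alone or as a block, one fit of all 50 arrays with or without a replicate block, and each array left out. The numbers do not pair the arrays: residuals of same-numbered arrays correlated at -0.03 to 0.02.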

Additional observations from a re-analysis of the deposited data

Results flagged for a closer look

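Of 28 differences between comparisons, 5 stood out, by a passed test or by opposite signs on every array. Differences that include a contrast on which the member was selected were not tested. Untested ones could be as large, such as -1.70 for Insig1 clone 2344 at 8 h, DBA/2J minus C57BL/6J. Over all clones, 1.00% were called for the change between the times in DBA/2J mice and 0.600% for the strain difference at 8 h. In DBA/2J mice the 8 h ratio minus the 4 h ratio was -0.61 for Insig1 clone 2344 (limma adjusted p of 0.0454), -0.74 for Insig1 clone 10784 (adjusted p of 0.0171) and 0.56 for Fads1 (adjusted p of 0.0239). At 8 h, DBA/2J minus C57BL/6J was 1.05 for Stard4 clone 11050 (adjusted p of 0.000551), a clone that was not above the empty spots on any DBA/2J 8 h array. For Insig1 clone 10784 it was -1.65, with all 10 DBA/2J arrays below 0 and all 10 C57BL/6J arrays above it; that difference was not tested, since the gene was selected on the C57BL/6J 8 h comparison. In 35 sets of 10 arrays, 1 for each clone and comparison, no array stood apart from the other 9 by Dixon's ratio; chance alone gives about 1 such array in 20 sets.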

How the results depend on the processing

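Insig1 clones 2344 and 10784 kept a positive ratio in C57BL/6J 8 h and between the strains, and Fads1 a negative one between the strains, under every alternative that gave a value. Fads1 between the strains moved to -0.90 in the authors' values and to -1.95 on scan day 2 alone. Insig1 clone 10784 in DBA/2J 8 h passed the test at -0.60 with median centring and at -0.51 with the filter on dim clones, the methods' t-test, scan day as a random block, all 50 arrays in one fit and the replicate block. Fads1 in DBA/2J 4 h passed at -0.63 with median centring and at -0.50 with the filter, the t-test, all 50 arrays in one fit and the replicate block. Stard4 clone 11050 in C57BL/6J 8 h passed at -0.59 with the filter, all 50 arrays in one fit and the replicate block. The difference of Fads1 between 8 h and 4 h in DBA/2J was 0.34 in the authors' values and no longer passed; the replicate block changed no call of a difference. The cause was not tested in these cases, beyond the smaller number of clones tested under the filter and the larger number of arrays in the fit over all 50.

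Some ratios close to 0 changed sign. With the numerator pool in Cy3 only, Insig1 clone 2344 was -0.04 in DBA/2J 4 h, clone 13342 was 0.12 in C57BL/6J 4 h, Stard4 clone 3395 was 0.02 in DBA/2J 8 h and -0.03 in C57BL/6J 8 h, Fads1 was -0.01 in C57BL/6J 8 h and clone 3395 was -0.09 between the strains. With it in Cy5 only, Stard4 clone 9221 was -0.62 in DBA/2J 8 h and -0.19 in C57BL/6J 8 h. On single scan days, clone 13342 was -0.40 in DBA/2J 4 h (day 2) and 0.21 in DBA/2J 8 h (day 2), clone 3395 was 0.21 in DBA/2J 8 h (day 3), and clone 9221 was -0.0025 (day 1) and -0.23 (day 2) in DBA/2J 8 h and -0.25 in C57BL/6J 8 h (day 1); clone 3395 was -0.05 between the strains (day 2). Fads1 in C57BL/6J 8 h was -0.09 with print-tip loess, -0.13 with median centring and -0.08 in the authors' values, and in DBA/2J 8 h it was -0.04 with median centring and -0.0038 in the authors' values. Its strain difference at 8 h was 0.13 with print-tip loess and 0.08 in the authors' values. With 1 array left out, clone 13342 in DBA/2J 4 h ranged from -0.04 to 0.34, clone 3395 in C57BL/6J 8 h from -0.0014 to 0.21, and clone 9221 from -0.14 to 0.20 in DBA/2J 8 h and from -0.08 to 0.30 in C57BL/6J 8 h.

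The background counts depend on the setting more than the members do. The number of clones called in DBA/2J 4 h was 35, and became 18 with no background subtraction, 76 with median centring, 195 with the filter on dim clones, 21 with no dye term, 84 by the t-test, 75 in the authors' values and 1 with orientations averaged. In DBA/2J 8 h it was 36, and became 96 with median centring, 9 with no dye term, 89 by the t-test and 87 with scan day as a random block. In C57BL/6J 4 h it was 66, and became 165 with the filter and 103 by the t-test. In C57BL/6J 8 h it was 19, and became 34 with median centring, 88 with the filter, 39 by the t-test, 33 in the authors' values, 34 with scan day as a block and 2 with orientations averaged. Between the strains it was 827, and became 539 with the filter and 47 with orientations averaged. With all 50 arrays in one fit it was 355 in DBA/2J 4 h, 114 in DBA/2J 8 h, 125 in C57BL/6J 4 h and 197 in C57BL/6J 8 h, and with the replicate block 355, 118, 126 and 197. With the numerator in Cy5 only, in Cy3 only or on one scan day the counts were 0 in both DBA/2J comparisons, and orientations averaged gave 0 in DBA/2J 8 h and C57BL/6J 4 h. C57BL/6J 4 h had 0 in either orientation alone. C57BL/6J 8 h had 1 in Cy5, 42 in Cy3 and 0 on either scan day, and the strain comparison had 35 in Cy5, 140 in Cy3, 45 on scan day 1 and 0 on scan day 2. With 1 array left out, the counts ranged from 12 to 17 in DBA/2J 4 h, from 1 to 1 in DBA/2J 8 h, from 16 to 42 in C57BL/6J 4 h, from 9 to 14 in C57BL/6J 8 h and from 569 to 668 between the strains.

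Of the 4 pathway lists, members included, 0 clones were called in either DBA/2J comparison. In DBA/2J 4 h this became 1 with median centring, 5 with the filter and 1 by the t-test, and in DBA/2J 8 h 3, 1 and 2 in the same order. In settings added for these lists after the data were seen, all 50 arrays in one fit and the replicate block each gave 3 in DBA/2J 4 h, 2 in DBA/2J 8 h and 4 in C57BL/6J 8 h, and scan day as a random block gave 1 in DBA/2J 8 h. The 2 clones of C57BL/6J 8 h became 0 in either orientation alone, and the 6 between the strains became 11 with median centring, 2 in Cy5 only and 3 in Cy3 only. Signal over the empty spots limits both dim clones, Insig1 13342 and Stard4 9221, and, on the DBA/2J 8 h arrays, Insig1 2344 and both other Stard4 clones.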
